A study of Mus musculus with 6 samples.

Results

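Genes of the DNA damage response and of DNA repair were followed in mouse regulatory T cells (Tregs) recovered from hosts with or without MHC class II. The set was a fixed list of 31 gene symbols, and a gene entered when a row of the deposited table carried its symbol and no other. That was so for 30 of the 31, out of 19937 genes in all, while Xrcc2 was not analysed here. Nbn had 2 rows and was represented by the row with the higher mean, and each of the others had 1. All 30 lay above the filter on low values and were among the 15037 genes tested. From general knowledge of their regulation, 15 were taken as proliferation-coupled and 15 as constitutive. Transcripts of the first kind are held to rise as cells replicate DNA and approach division. The assignment is debatable for some members, Chek2 among them, and the members were chosen with earlier results of these data known.

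Cells repair DNA by several routes. Breaks across both strands are sensed by the MRE11-RAD50-NBN complex, which activates the kinase ATM, while stalled replication forks activate ATR, and these kinases signal through CHK2 and CHK1. Homologous recombination copies an intact sister chromatid and so operates mainly in S and G2 phase, whereas end joining, base and nucleotide excision repair serve cells in any phase. T cells in addition depend on end joining when they assemble their receptor genes, and expanding T cells on the factors that protect replication forks.

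The cells came from a transfer experiment. T cells of wild-type mice were transferred into hosts without T cells of their own, either CD3e-deficient mice that express MHC class II (called MHC II-competent here) or mice deficient in both CD3e and MHC class II (MHC II-deficient). MHC class II presents peptide to the receptor of CD4+ T cells, so the comparison asks what changes when Tregs go 5 days without that contact. CD4+ TCRβ+ CD25+ cells were then isolated with beads and a cell sorter; the labels name C57BL/6 as the strain, an age of 6 to 8 weeks and peripheral lymph nodes and spleen as the tissue. There were 3 biological replicates per group, called competent 1 to 3 and deficient 1 to 3, and the labels do not say whether a replicate is 1 host or a pool. Both kinds of host lack CD3e, so neither group shows Tregs in an unmanipulated mouse, and the sort took cells by these surface markers and not by Foxp3.

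Each array gave 1 log2 value for 28101 rows, with array medians from 6.11 to 6.25. Foxp3, the defining transcription factor of Tregs, stood at 9.82 ± 0.05 in the competent and 9.77 ± 0.09 (SD, n = 3 each) in the deficient group. Of 8 tested genes of Tregs and CD4 T cells 8 lay lower in the deficient group, 4 of them without overlap, and the median log2 difference was -0.11. Over all tested genes 46.0% lay lower, and 12.9% did so without overlap. At an unadjusted p under 0.05, 11.0% of all tested genes were lower and 7.85% higher. None of the 8 passed by limma, and 3 had an unadjusted p under 0.05, all lower (Il2ra, Ikzf2 and Ctla4, named after their values were seen). Markers of macrophages and other myeloid cells moved with the groups. Of 19 such markers, 17 lay higher in the deficient group, 1 of them past the threshold (Adgre1, log2 difference 1.39), and the list median was 0.89. At an unadjusted p under 0.05, 14 were higher and 2 lower, and 4 were higher past the threshold with array weights or without deficient 3. With the replicate numbers as a block, 11 were higher past the threshold and 0 lower. The per-array mean of the list ran from 6.38 to 7.29 in the competent and from 7.20 to 8.01 in the deficient arrays, so the groups overlapped. The call of Adgre1 ended without any 1 array but deficient 3. Of 4 tested B cell markers Cd22 passed (1.32), with each array left out in turn too, while the B cell markers Ms4a1, Ebf1 and Blnk lay below the filter. In each of these untested markers every deficient array lay above every competent one. Their means were 4.42, 4.07 and 4.74 in the competent and 4.76, 4.37 and 4.98 in the deficient group. Cd79a (0.46), Pax5 (0.02) and Cd79b (-0.39) did not pass. For Cd79b every deficient array lay under every competent one. None of the 6 CD8 T and NK cell markers or the 3 erythroid and platelet markers passed by limma, with 4 and 2 at an unadjusted p under 0.05. Of those 4, 3 were higher and 1 lower, and the 2 were higher. Their part in the results below was not tested beyond the covariate fits given. In a sorted population, fewer cells with a transcript and less of it per cell cannot be told apart.

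Among the repair genes the differences lay on 1 side for the proliferation-coupled members. Of 15, every one had a lower deficient mean, and 3 fell: Chek2, Rad51ap1 and Brca1 (adjusted p under 0.05, limma with Benjamini-Hochberg adjustment over all tested genes). The median log2 difference, deficient minus competent, was -0.41, and it ranged from -0.64 to -0.05. Of the 15 constitutive members, 8 lay lower and 7 higher, 0 passed in either direction, 2 had an unadjusted p under 0.05 (Atm and Mdc1, both higher), and the median was -0.10. Over all tested genes the median was 0.02, 46.0% had a negative difference, and 3.37% were called, 2.03% as lower and 1.34% as higher, against 3 lower and 0 higher of the 30 members. The split of all calls, 306 lower to 201 higher, was 230 to 230 under quantile normalization and 297 to 127 under median centring.

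**Figure D1:**
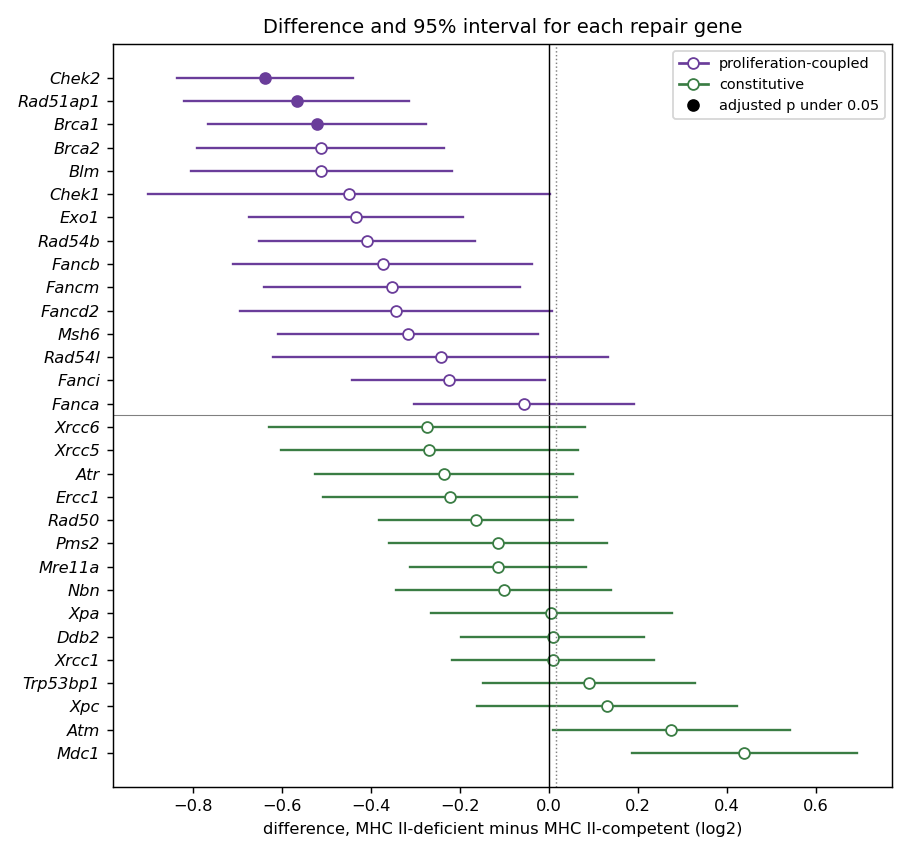
Log2 difference (MHC II-deficient minus MHC II-competent, x axis) with limma's 95% interval for each of the 30 repair genes, proliferation-coupled above the line and constitutive below; filled points have an adjusted p under 0.05 and the dotted line is the median of all tested genes (0.02). All 15 proliferation-coupled genes sit left of 0, with Chek2, Rad51ap1 and Brca1 filled, while the constitutive genes lie on both sides.

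The values of single arrays gave the same picture. The groups did not overlap, with every deficient array under every competent one, for 10 of the 15 proliferation-coupled and 3 of the 15 constitutive members, beside 12.9% of all tested genes. Every deficient array lay above every competent one for 0 and 2 members, beside 11.4% of all genes. Some of the separations as lower were narrow. The lowest competent array lay only 0.0013 above the highest deficient one for Fancd2 and 0.0049 for Fancb, both proliferation-coupled. Among constitutive members this margin was 0.02 for Rad50, 0.03 for Atr and 0.06 for Mre11a. At an unadjusted p under 0.05, 11 proliferation-coupled members were lower, beside 11.0% of all tested genes, and 2 constitutive members were higher, beside 7.85%. With 1 array left out, the count of members that passed was 1 without competent 1, deficient 1 or deficient 2 and 6 without competent 3, and every member that passed was proliferation-coupled and lower.

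**Figure D2:**
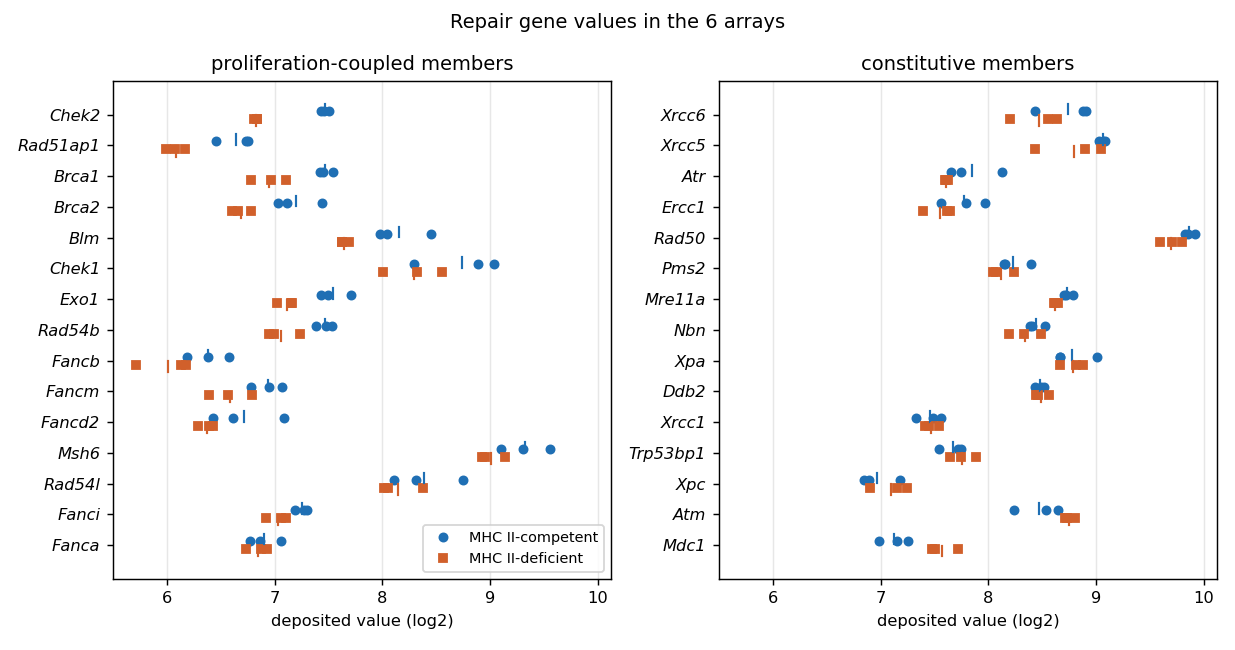
Deposited log2 values (x axis) of the 30 repair genes in the 3 MHC II-competent arrays (circles) and the 3 MHC II-deficient arrays (squares), with a short vertical line at each group mean and genes ordered by their difference. For Chek2, Rad51ap1 and Brca1 the squares lie to the left of all circles, and for Mdc1 and Atm to the right.

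The promoters of the 3 members that fell, and of Mdc1, the member with the largest positive difference, are shown because E2F and NF-Y, factors that bind many cell-cycle promoters, have short known motifs that can be looked for in them. Each window runs from 250 bases before to 50 bases after the start of transcription, from RefSeq on GRCm38.p6, and is written 5′ to 3′ on the strand of the gene. Chek2 lies on the plus strand at chr5:110839733-110840032, Rad51ap1 on the minus strand at chr6:126939538-126939837, Brca1 on the minus strand at chr11:101551906-101552205 and Mdc1 on the plus strand at chr17:35841248-35841547. Capitals mark an E2F motif (TTTGGCGC, TTTGCCGC, TTTCGCGC or TTTCCCGC) or the NF-Y motif CCAAT, on either strand.
Chek2: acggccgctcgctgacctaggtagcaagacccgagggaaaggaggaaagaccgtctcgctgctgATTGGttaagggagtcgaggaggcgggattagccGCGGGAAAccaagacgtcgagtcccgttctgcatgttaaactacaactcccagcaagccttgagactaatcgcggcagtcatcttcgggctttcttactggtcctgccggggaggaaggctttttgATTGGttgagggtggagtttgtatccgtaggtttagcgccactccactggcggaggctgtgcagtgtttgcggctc
Rad51ap1: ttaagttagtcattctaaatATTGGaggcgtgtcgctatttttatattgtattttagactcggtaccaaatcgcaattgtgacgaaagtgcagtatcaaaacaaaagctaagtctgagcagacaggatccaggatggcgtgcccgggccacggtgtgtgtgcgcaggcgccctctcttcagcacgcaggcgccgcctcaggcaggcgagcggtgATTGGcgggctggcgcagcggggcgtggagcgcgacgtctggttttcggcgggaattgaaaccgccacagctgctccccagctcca
Brca1: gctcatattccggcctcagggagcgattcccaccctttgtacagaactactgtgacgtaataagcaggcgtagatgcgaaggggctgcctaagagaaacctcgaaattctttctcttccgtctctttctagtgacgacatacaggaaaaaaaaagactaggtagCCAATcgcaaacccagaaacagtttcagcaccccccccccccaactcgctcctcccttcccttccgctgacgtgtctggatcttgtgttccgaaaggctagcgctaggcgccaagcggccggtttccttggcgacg
Mdc1: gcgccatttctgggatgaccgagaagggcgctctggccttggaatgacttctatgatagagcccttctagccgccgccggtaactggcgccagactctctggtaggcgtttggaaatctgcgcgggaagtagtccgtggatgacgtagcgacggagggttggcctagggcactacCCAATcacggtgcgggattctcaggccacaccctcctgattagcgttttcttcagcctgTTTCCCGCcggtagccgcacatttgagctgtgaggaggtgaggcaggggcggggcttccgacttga

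Chek2 held an E2F motif that begins 152 bases before the start site and 2 NF-Y motifs, and Rad51ap1 held 2 NF-Y motifs. Brca1 held 1 NF-Y motif, beginning 86 bases before the start. Mdc1, whose difference was positive, held both kinds, with the E2F motif beginning 16 bases before the start. A promoter window was found for 23 of the 30 members, and not for Rad54b, Fancd2, Exo1, Rad50, Nbn, Xpc and Ddb2. An E2F motif was present in 3 of 12 proliferation-coupled members (Brca2, Chek2 and Msh6) and 2 of 11 constitutive members (Mdc1 and Xrcc6), beside 2.6% of all 27025 genes with a window. The NF-Y motif was present in 9 of 12 and 8 of 11, beside 41.1% of all genes. The CHR motif TTTGAA, bound by complexes that repress cell-cycle genes in resting cells, was in 0 of 12 and 0 of 11, beside 20.2% of all genes. These motifs overlap with none of the others in the members' windows, and a match is a description of letters. Only the E2F spellings listed above were searched, so other forms of the site were not counted.

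Of the checkpoint kinases, Chek2, which encodes the kinase CHK2 that ATM activates, showed the largest difference of all members. Its values were 7.45, 7.50 and 7.43 in competent arrays 1 to 3, against 6.83, 6.81 and 6.83 in the deficient ones. The lowest competent array lay 0.59 above the highest deficient one, against SDs of 0.04 and 0.02 (n = 3 each). The log2 difference was -0.64 (SE 0.09, 95% interval -0.83 to -0.44, limma adjusted p = 0.0066), so Chek2 fell 1.56-fold. The call held with each of the 6 arrays left out in turn (highest adjusted p 0.036). Chek1, which encodes the kinase CHK1 that ATR activates at stalled forks, stood at 9.04, 8.89 and 8.29 in competent arrays 1 to 3, against 8.32, 8.00 and 8.55 in the deficient ones. Here the groups overlapped, since competent 3 lay under deficient 1 and 3, and the difference of -0.45 (SE 0.20, limma adjusted p = 0.27) did not pass. Without competent 3 it was -0.67 and passed (adjusted p = 0.050, just under the threshold before rounding).

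The upstream kinases gave differences of opposite sign. Atm stood at 8.54, 8.64 and 8.24 in competent arrays 1 to 3, against 8.71, 8.81 and 8.73 in the deficient ones, a difference of 0.28 (SE 0.12) whose 95% interval ran from 0.01 to 0.54 but whose limma adjusted p was 0.25. All deficient arrays lay above all competent ones. Atr stood at 7.75, 8.13 and 7.65 in competent arrays 1 to 3, against 7.59, 7.63 and 7.61 in the deficient ones. Its deficient arrays lay under all competent ones by a narrow margin, and the difference of -0.23 (SE 0.13, limma adjusted p = 0.37) was -0.09 without competent 2.

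Homologous recombination held the other 2 members that fell, and 6 of its 7 measured genes did not overlap between the groups, all as lower. Over all tested genes 2.03% were called as lower and 12.9% did not overlap as lower. Rad51ap1 encodes an accessory factor of homologous recombination. Its values were 6.73, 6.45 and 6.75 in competent arrays 1 to 3, against 5.99, 6.07 and 6.17 in the deficient ones. It fell by 0.57 (SE 0.11, limma adjusted p = 0.030), or 1.48-fold, and the call ended without competent 1 or any 1 of the 3 deficient arrays (highest adjusted p 0.12). Brca1, which encodes a scaffold that directs breaks towards recombination, stood at 7.54, 7.45 and 7.42 in competent arrays 1 to 3, against 6.78, 6.96 and 7.10 in the deficient ones. It fell by 0.52 (SE 0.11, limma adjusted p = 0.036), or 1.43-fold. The call ended without competent 1, competent 2, deficient 1 or deficient 2 (highest adjusted p 0.14).

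A further 4 recombination genes had differences of like size without passing. Brca2, a tumour suppressor gene of the same route, stood at 7.11, 7.44 and 7.03 in competent arrays 1 to 3, against 6.61, 6.66 and 6.78 in the deficient ones. Blm, which encodes the helicase of Bloom syndrome, stood at 8.45, 8.05 and 7.98 in competent arrays 1 to 3, against 7.63, 7.69 and 7.63 in the deficient ones. Exo1, an exonuclease gene whose product trims break ends, stood at 7.71, 7.43 and 7.49 in competent arrays 1 to 3, against 7.02, 7.16 and 7.15 in the deficient ones. In each of the 3 genes every deficient array lay under every competent one. The differences were -0.51 for Brca2 (SE 0.12), -0.51 for Blm (SE 0.13) and -0.43 for Exo1 (SE 0.11), with limma adjusted p-values of 0.058, 0.069 and 0.064. Brca2 and Blm passed without competent 3 (adjusted p = 0.036 and 0.040). Rad54b, which encodes a motor protein of recombination, differed by -0.41 (SE 0.11, limma adjusted p = 0.0785), also without overlap. Its relative Rad54l was the exception, at 8.75, 8.31 and 8.11 in competent arrays 1 to 3, against 8.05, 8.02 and 8.37 in the deficient ones. There deficient 3 lay above competent 2 and 3, and the difference of -0.24 (SE 0.17, limma adjusted p = 0.48) was -0.06 without competent 1.

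The Fanconi anaemia genes, whose products detect and unhook DNA strands that are crosslinked to each other, were lower in the mean in 5 of 5 cases and past the threshold in 0, with 3 at an unadjusted p under 0.05. Over all tested genes 46.0% had a negative difference and 11.0% were lower at that unadjusted p. Fancb and Fanca encode subunits of the core complex, Fancm a fork-remodelling protein that anchors it, and Fancd2 and Fanci the pair that it marks with ubiquitin. The differences were -0.37 for Fancb (SE 0.15), -0.35 for Fancm (SE 0.13), -0.34 for Fancd2 (SE 0.16), -0.22 for Fanci (SE 0.10) and -0.05 for Fanca (SE 0.11). Limma's adjusted p-values ran from 0.18 for Fancm to 0.84 for Fanca. Fancd2 depended most on 1 array. Its values were 6.43, 7.09 and 6.62 in competent arrays 1 to 3, against 6.38, 6.43 and 6.29 in the deficient ones, and without competent 2 the difference was -0.16. Fanci, with a small but even difference, stood at 7.19, 7.30 and 7.27 in competent arrays 1 to 3, against 7.06, 6.92 and 7.11 in the deficient ones. The sign of Fanca turned without competent 3 (0.026) or deficient 2 (0.0014).

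The genes that sense breaks and build the response around them were mixed. Mdc1 encodes the mediator that binds marked histone H2AX beside a break, and it was the member with the largest positive difference. Its values were 6.98, 7.15 and 7.25 in competent arrays 1 to 3, against 7.50, 7.72 and 7.47 in the deficient ones. Every deficient array lay above every competent one, and the difference of 0.44 (SE 0.11, 95% interval 0.19 to 0.69) had a limma adjusted p of 0.071, so it did not pass. It passed with array weights (0.50, adjusted p = 0.036), and with 1 array left out the adjusted p ran from 0.050 to 0.23, none under the threshold. Trp53bp1, whose product shields break ends from trimming, differed by 0.09 (SE 0.11). The MRE11-RAD50-NBN complex had small negative differences, -0.16 for Rad50 (SE 0.10), -0.11 for Mre11a (SE 0.09) and -0.10 for Nbn (SE 0.11), with limma adjusted p-values from 0.41 to 0.67. Their 95% intervals reached down to -0.38, -0.31 and -0.34, and so take in decreases of that size. For Rad50 and Mre11a every deficient array lay under every competent one, by 0.02 and 0.06. The row of Nbn that was not used stood at 6.38 in the mean against 8.39 for the one used, and its difference was 0.06.

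End joining was measured through Xrcc5 and Xrcc6, which encode the Ku80 and Ku70 subunits of the ring that caps broken ends. Xrcc5 stood at 9.09, 9.03 and 9.07 in competent arrays 1 to 3, against 8.44, 8.90 and 9.05 in the deficient ones. Deficient 1 lay far under the other 5 arrays, and the difference went from -0.27 (SE 0.15, limma adjusted p = 0.37) to -0.09 without it. Xrcc6 stood at 8.91, 8.88 and 8.44 in competent arrays 1 to 3, against 8.20, 8.56 and 8.64 in the deficient ones. The groups overlapped, with a difference of -0.27 (SE 0.16, limma adjusted p = 0.39) that was -0.43 without competent 3 and -0.14 without deficient 1.

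Excision repair showed the smallest differences. Ddb2, which encodes the sensor of ultraviolet damage, stood at 8.52, 8.49 and 8.43 in competent arrays 1 to 3, against 8.46, 8.44 and 8.56 in the deficient ones. The 6 values lay within 0.13 of each other, and the difference was 0.01 (SE 0.09) with a 95% interval from -0.20 to 0.21. Xrcc1, the scaffold gene of single-strand break repair, differed by 0.01 (interval -0.22 to 0.24) and Xpa, whose product checks damaged DNA before excision, by 0.01 (interval -0.26 to 0.28). The signs of these 3 turned under median centring (-0.045, -0.045 and -0.049, in the order Ddb2, Xrcc1, Xpa). Xpc, which encodes the damage recognition factor, stood at 0.13 (SE 0.13) and Ercc1, a subunit of the nuclease that cuts beside the damage, at -0.22 (SE 0.13). None of the 5 passed, and all 5 overlapped between the groups.

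Mismatch repair, which corrects copying errors after replication, had 2 members. Msh6, a subunit of the mismatch sensor, stood at 9.10, 9.56 and 9.31 in competent arrays 1 to 3, against 8.92, 8.96 and 9.14 in the deficient ones. Deficient 3 lay above competent 1, and the difference of -0.32 (SE 0.13, 95% interval -0.61 to -0.02) had a limma adjusted p of 0.23. Pms2, a subunit of the nuclease that acts after it, stood at -0.11 (SE 0.11, limma adjusted p = 0.63).

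**Figure D3:**
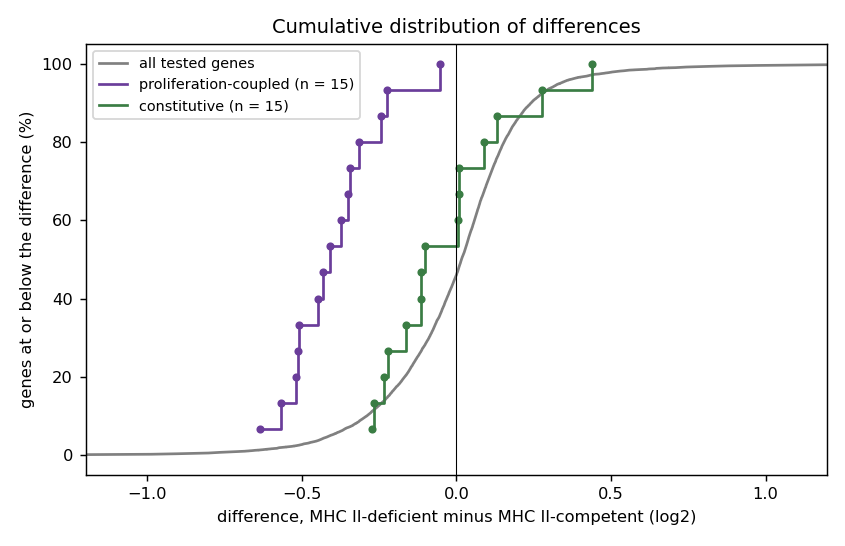
Share of genes (y axis, in percent) at or below a given log2 difference (MHC II-deficient minus MHC II-competent, x axis) for all 15037 tested genes, the 15 proliferation-coupled and the 15 constitutive repair genes; differences beyond 1.2 are outside the axis. The proliferation-coupled curve lies left of both others from its first step on, with a median of -0.41 against -0.10 and 0.02.

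Both groups of repair genes were then set side by side within each array. The proliferation-coupled mean stood at 7.51, 7.54 and 7.45 in competent arrays 1 to 3, against 7.03, 7.09 and 7.20 in the deficient ones. For the constitutive members it was 8.24, 8.29 and 8.19 against 8.15, 8.26 and 8.21. The first mean separated the groups, and the second overlapped. The difference between the 2 means within an array was -0.73, -0.75 and -0.74 in the competent arrays and -1.12, -1.17 and -1.01 in the deficient ones, a change of -0.36. Since the members were chosen with results of these data known, no test of this contrast is given. Members of debatable assignment were next left out (Chek2, Fancm, Msh6, Rad54b, Rad50, Nbn and Mre11a). Xrcc2, also debatable, had not been analysed. Without them the proliferation-coupled minus the constitutive median was -0.44 in place of -0.31. The constitutive median went from -0.10 to 0.0073 and the proliferation-coupled one from -0.41 to -0.43. Rad50, Nbn and Mre11a lay at or below the constitutive median, so leaving them out could only raise it. The wider gap is therefore no support for the contrast. Then 2 of 11 proliferation-coupled members passed, both lower, and 0 of 12 constitutive ones. Chek2, the member with the largest difference, is among those left out.

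Genes of DNA replication and mitosis that share no member with the repair list were read beside them. Of 34 such proliferation genes, 33 lay lower in the MHC II-deficient group and 11 fell, with a median of -0.46, beside 46.0% of all tested genes with a negative difference and 2.03% called as lower. Mki67, the gene of the proliferation marker Ki-67, stood at 10.13 ± 0.13 against 9.55 ± 0.16, and Top2a, which encodes a topoisomerase of dividing cells, at 11.05 ± 0.08 against 10.40 ± 0.27 (SD, n = 3 each). Their calls ended without 4 and 5 of the 6 arrays, whereas that of Cenpf (-0.80, SE 0.11), a gene of the mitotic centromere, held without each. The count of 11 was 1 without competent 2 or deficient 1, 3 without deficient 2, 5 without competent 1, 7 under quantile normalization and 16 with array weights. With the myeloid mean as a covariate 1 gene of the list passed, and its median was -0.46. The per-array mean of the 34 genes was 9.37, 9.34 and 9.13 against 8.79, 8.86 and 8.93, and so separated the groups as the proliferation-coupled repair genes did.

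With the proliferation mean as a covariate the median of the proliferation-coupled members went from -0.41 to -0.25 and that of the constitutive members from -0.10 to 0.10. The median SE of the members rose from 0.12 to 0.30, 0 of the 15037 genes passed limma's threshold, and 1 proliferation-coupled member had an unadjusted p under 0.05, and group and covariate cannot be told apart in it. Chek2 stood at -0.57 (SE 0.24) in it and Rad51ap1 at -0.64 (SE 0.31), while Brca1 stood at -0.17 (SE 0.28) and Brca2 at -0.07 (SE 0.31). With the mean of the myeloid markers as a covariate 0 members passed, 7 proliferation-coupled ones had an unadjusted p under 0.05, and the median SE was 0.16. Chek2 was then at -0.67 (SE 0.14, adjusted p = 0.077), Brca1 at -0.41 (SE 0.16) and Rad51ap1 at -0.37 (SE 0.15).

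**Figure D4:**
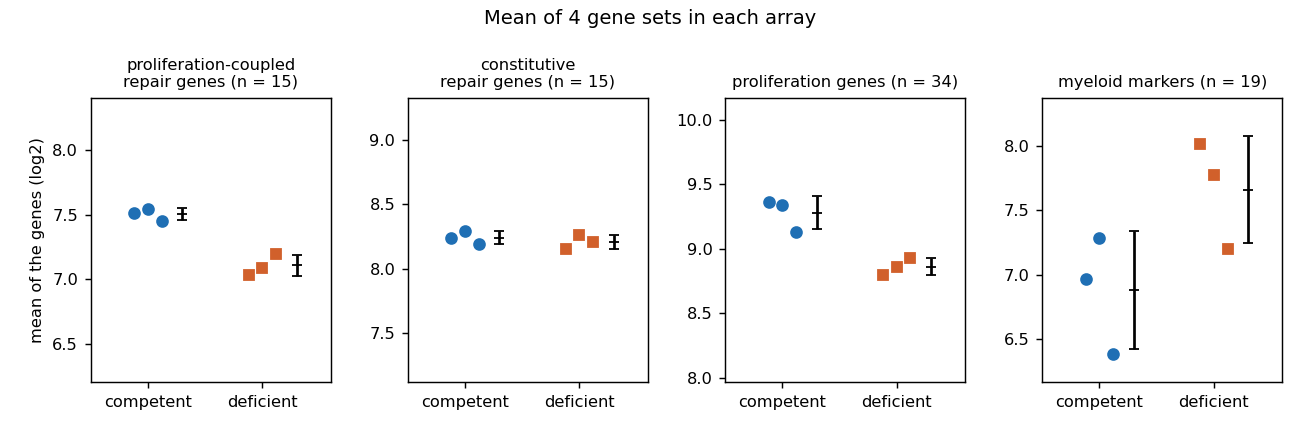
Mean log2 value (y axis, each panel spanning 2.2 units) over the proliferation-coupled and constitutive repair genes, the 34 proliferation genes and the 19 myeloid markers, with 1 point per array and the group mean with its SD as a black bar. Proliferation-coupled repair genes and proliferation genes are lower in all 3 MHC II-deficient arrays, constitutive repair genes overlap, and the myeloid markers have the widest spread.

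The rest of the repair network was read from further lists, beside 2.03% of all tested genes called as lower. Of 22 other checkpoint and damage-sensing genes, 4 fell and 0 rose, with a median of -0.22. They were Wee1 (-0.68, SE 0.12), a kinase gene that restrains entry into mitosis, Cdc25c (-0.66, SE 0.13), the phosphatase gene that opposes it, and Tipin (-0.55, SE 0.10) and Clspn (-0.46, SE 0.10), whose products link stalled forks to CHK1. Those 4 calls each ended without at least 4 of the 6 arrays, and the list's count was 0 without competent 1, competent 2 or deficient 1. At an unadjusted p under 0.05, 8 of the 22 were lower and 0 higher, beside 11.0% and 7.85% of all tested genes. Of 33 other excision repair genes, 2 fell and 0 rose (median -0.03), namely Parp1 (-0.63, SE 0.11), the sensor of single-strand breaks, and Lig1 (-0.45, SE 0.09), the ligase of replicating DNA. Both calls ended without competent 1, competent 2 or deficient 1, and that of Lig1 also without deficient 2 or 3. Of the 33 excision repair genes, 6 were lower and 1 higher at an unadjusted p under 0.05.

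Of 18 other homologous recombination genes 1 fell, Hells (-0.44, SE 0.10), a chromatin remodeller gene, and of 11 other Fanconi anaemia genes 1 fell, Faap24 (-0.53, SE 0.11), a partner gene of Fancm. Neither call held with more than 1 of the 6 arrays left out in turn. The medians were -0.09 and -0.02, and these single calls are to be read beside the 2.03% of all tested genes called as lower. At an unadjusted p under 0.05, 5 of the 18 and 4 of the 11 were lower and 0 higher, beside 11.0% of all tested genes lower. The groups did not overlap, as lower, for 6 and 4, beside 12.9% of all tested genes. Among 9 other end-joining genes and 5 other mismatch repair genes 0 passed by limma, with 0 and 2 at an unadjusted p under 0.05. Those 2 were both lower. With array weights, with the replicate block or without competent 3, 1 mismatch repair gene passed as lower. Of 20 genes of p53 and its targets, which report an active damage response, 0 passed by limma, 4 were lower and 1 higher at an unadjusted p under 0.05, and the median was -0.05. The largest and smallest differences among these 20 were 0.40 and -0.44. Under quantile normalization or the trended robust prior 1 of the 20 passed as higher. With array weights 2 passed as lower and 1 as higher, and without competent 3 there was 1 lower call. Whether a damage response was active was not tested.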

How the data were processed

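RNA of sorted T cells (100 ng per array) was labelled with biotin and hybridised to 6 Affymetrix whole-transcript arrays, per the labels' protocols. The deposited values are on a log scale taken as log2, which the authors made with the R package affy and RMA, per the submitters' processing notes; versions and genome build are not given in the sources used here. Rows were named by the platform annotation with symbols updated from GRCm38.p6 by Entrez identifier (21553 of 21640 rows with 1 symbol); rows with several symbols or none (1321 and 5140) were not used. Of several rows of 1 gene the one with the largest mean was kept, and 4900 genes with a mean under 5.205, the 25th percentile, were left out. MHC II-deficient minus MHC II-competent was tested over 15037 genes with limma 3.58.1 in R 4.3.3 (two-sided, default prior, no covariate, 4 residual degrees of freedom), with Benjamini-Hochberg adjustment and a threshold of 0.05. The p-values measure the spread between the 3 preparations per group, and the number of arrays limits the precision. The test was first tested on simulated data. There it recovered 22 of 50 changes of 0.5 log2, and 46, 45 and 50 of 50 at sizes of 1, 1.5 and 2. A gene that did not pass can therefore hold a change of about 0.5. All members are named; of other lists, up to 4 genes past the threshold by smallest p, with Mki67, Top2a and Foxp3 and markers of other cells. The members and lists were chosen with earlier results of these data known. Alternatives were 2 normalizations, 2 filters, gene means, array weights, a trended robust prior, a replicate block, 2 covariates, 6 fits with 1 array left out and a narrower grouping.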

Additional observations from a re-analysis of the deposited data

How the results depend on the processing

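Over 16 alternatives per gene, Chek2 passed in 14, Rad51ap1 in 10 and Brca1 in 9, always lower. All genes past the threshold numbered 507, 102 with the myeloid covariate, 0 with the proliferation covariate (1218 at an unadjusted p under 0.05), and 159 to 708 with 1 array left out. Members past it numbered 3, 7 with array weights (6 proliferation-coupled, 1 constitutive, Mdc1), 0 with either covariate (10 and 3 at an unadjusted p under 0.05, myeloid first), and 1 to 6 with 1 array left out, all proliferation-coupled. The constitutive count stayed 0 with 1 array left out. The proliferation-coupled median was -0.25 with the proliferation covariate and -0.46 to -0.35 with 1 array left out. The constitutive median was -0.028 under quantile normalization, -0.16 under median centring, -0.021 with the mean of a gene's rows, 0.098 with the proliferation covariate, 0.0073 without debatable members and -0.13 to -0.029 with 1 array left out. The gap between the medians was -0.38 under quantile normalization, -0.39 with the mean of a gene's rows, -0.44 without debatable members and -0.38 to -0.26 with 1 array left out. Its sign did not turn in these settings.

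The same-numbered arrays did not deviate together (correlations of -0.02, -0.14 and 0.07), so the numbers were not taken as pairs. With the replicate block 564 genes and 2 members passed, Brca1 being lost (adjusted p = 0.052), and 11 of the 19 myeloid markers passed as higher in place of 1.

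Signs turned for members that did not pass. With the proliferation covariate they did so for Rad54l (0.65), Chek1 (0.71), Xrcc5 (0.14), Xrcc6 (0.70), Atr (0.15), Ercc1 (0.089), Xpa (-0.36), Xpc (-0.49) and Nbn (0.10), and with the myeloid covariate for Fanca (0.13) and Trp53bp1 (-0.10). Median centring turned Xrcc1 (-0.045), Xpa (-0.049) and Ddb2 (-0.045), and array weights Xrcc1 (-0.019) and Ddb2 (-0.0093). With 1 array left out Fanca ran from -0.12 to 0.026, Xrcc1 from -0.056 to 0.063, Xpa from -0.051 to 0.12 and Ddb2 from -0.029 to 0.032. The causes were not tested. Fancb has no value under the filter at the median.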
